A study of Mus musculus with 8 samples.

Results

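The long noncoding RNAs Malat1, Neat1, Meg3, H19, Snhg11 and Gas5 were followed in pancreatic islets of mice with and without the cannabinoid 1 receptor (CB1R) in beta cells. The 6 genes were chosen by name with earlier results of these arrays known, and the values used in the choice were detection above background and the level in each mouse, by genotype and beside Fos. The probes were found through the transcript listed for each spot on the array. This gave 10 probes for 4 of the 6 genes, of 16964 named genes compared: 1 probe for Malat1, 1 for Neat1 and 3 for Meg3 matched by transcript, and 5 probes carried the name H19 itself. No probe matched Snhg11 or Gas5, and both were not analysed here. Probes whose listed transcript is not in the RefSeq table used stayed without a name, so probes for these genes, and further ones for H19, may be among them. Of the 10 probes, 8 were bright enough to be compared between the genotypes, which means that they stood well above background in 3 or more of the 7 mice.

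Most long noncoding RNAs are transcribed by the polymerase that makes messenger RNAs but are not translated into a known protein. Malat1 is retained in nuclear speckles, where splicing factors are stored, and its neighbour Neat1 is the RNA around which paraspeckles assemble. Meg3 and H19 are expressed from the maternal chromosome of 2 imprinted domains, those of Dlk1 and Igf2, which hold regulators of growth. Snhg11 and Gas5 are host genes of small nucleolar RNAs (snoRNAs), which are cut from their introns.

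Islets came from 4 β-CB1R+/+ and 3 β-CB1R-/- male mice on a standard diet, and islet RNA was hybridised to 1-colour Agilent arrays. By the study's methods all mice were Cnr1 flox/flox and were injected with tamoxifen. The β-CB1R-/- mice carried in addition the MIP-Cre/ERT transgene, a tamoxifen-inducible Cre under an insulin promoter, so that Cnr1 was to be lost from beta cells and not from other islet cells, while the β-CB1R+/+ mice were littermates without Cre. The transgene and the deletion therefore cannot be told apart between these groups. The sample labels give CB1 wild type or knockout on C57BL/6, and their account of the animals names the global knockout. The paper describes its array comparison as one of β-CB1R-/- and β-CB1R+/+ islets, and the groups are named so here. The sources used here do not settle which account holds for these mice. The age of these mice is not given in the sources used here. Replicate 2 of the β-CB1R-/- mice had 2 repeat arrays, which were averaged. The 8 arrays shared 1 slide on which each genotype had its own side, and the effects of side and genotype cannot be told apart. Between 33304 and 39988 of 55681 probes were well above background on an array. The islet hormone genes Ins1, Ins2, Gcg, Sst and Ppy were well above background on all 8 arrays, as were the acinar genes Ctrl, Cuzd1 and Pnliprp1, which mark exocrine tissue. Levels are given as log2 intensity relative to the 75th percentile of the array, and a level of one probe says nothing of its abundance relative to another probe.

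The DNA in front of the genes is shown first, since the receptor studied here lowers cyclic AMP and the level of Malat1 is set beside that of Fos, a gene that cyclic AMP induces. Windows of 300 bases around the transcription start, from 250 before to 50 after it, were taken from RefSeq (GRCm38.p6), where windows for Malat1, Meg3 and Fos were found. The cyclic AMP response element is TGACGTCA and its core is TGACG or, on the other strand, CGTCA; both strands were searched, and each whole element contains 2 overlapping cores. Capitals mark the cores, and each sequence runs in the direction of transcription. The Malat1 window is chr19:5802623-5802922 on the minus strand, the Fos window chr12:85473640-85473939 on the plus strand and the Meg3 window chr12:109540746-109541045 on the plus strand.
Malat1: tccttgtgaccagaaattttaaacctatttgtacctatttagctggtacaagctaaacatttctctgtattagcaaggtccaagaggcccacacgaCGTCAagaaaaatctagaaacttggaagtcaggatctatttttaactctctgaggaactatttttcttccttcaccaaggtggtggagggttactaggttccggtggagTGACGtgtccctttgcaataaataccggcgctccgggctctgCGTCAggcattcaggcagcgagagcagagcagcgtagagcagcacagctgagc
Fos: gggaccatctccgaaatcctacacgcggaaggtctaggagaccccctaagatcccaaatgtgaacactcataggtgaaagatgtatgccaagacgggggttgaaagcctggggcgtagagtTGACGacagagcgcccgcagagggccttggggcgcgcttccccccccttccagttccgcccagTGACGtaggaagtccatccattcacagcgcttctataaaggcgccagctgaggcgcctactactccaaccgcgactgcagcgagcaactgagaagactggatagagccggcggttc
Meg3: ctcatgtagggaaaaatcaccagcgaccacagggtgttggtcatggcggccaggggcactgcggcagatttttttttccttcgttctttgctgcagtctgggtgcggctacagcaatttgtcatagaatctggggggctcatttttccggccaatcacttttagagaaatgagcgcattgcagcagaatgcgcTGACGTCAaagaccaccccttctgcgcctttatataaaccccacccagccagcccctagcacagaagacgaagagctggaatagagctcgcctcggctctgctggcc

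The Malat1 window held 3 cores, starting 154, 45 and 3 bases before the transcription start, and no whole element. The Fos window held 2 cores, 129 and 66 bases before the start, also without a whole element. The Meg3 window held 1 whole element, 57 bases before the start. A second Meg3 window, chr12:109545148-109545447, held no core. A core occurred in 20.8% and the whole element in 1.79% of the 32851 promoter windows of this length. These matches are letters in a window, and binding was not measured.

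Malat1 was the member that differed most between mice, and the difference did not follow the genotype. In β-CB1R+/+ islets its level was 1.35, 1.23, 5.73 and 5.44 in replicates 1 to 4. In β-CB1R-/- islets it was 1.52, 5.36 and 1.31 in replicates 1 to 3. Replicates 3 and 4 of the β-CB1R+/+ mice and replicate 2 of the β-CB1R-/- mice were high, the other 4 mice were low, and the genotypes overlapped. On the 1 probe that measured Malat1, the highest mouse was 22.7-fold above the lowest, a log2 range of 4.51. Over all compared probes the median range was 1.1, and 204 probes, 0.521%, had a wider range than Malat1. The repeat arrays of β-CB1R-/- replicate 2 gave 5.37 and 5.35 for Malat1.

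**Figure D1:**
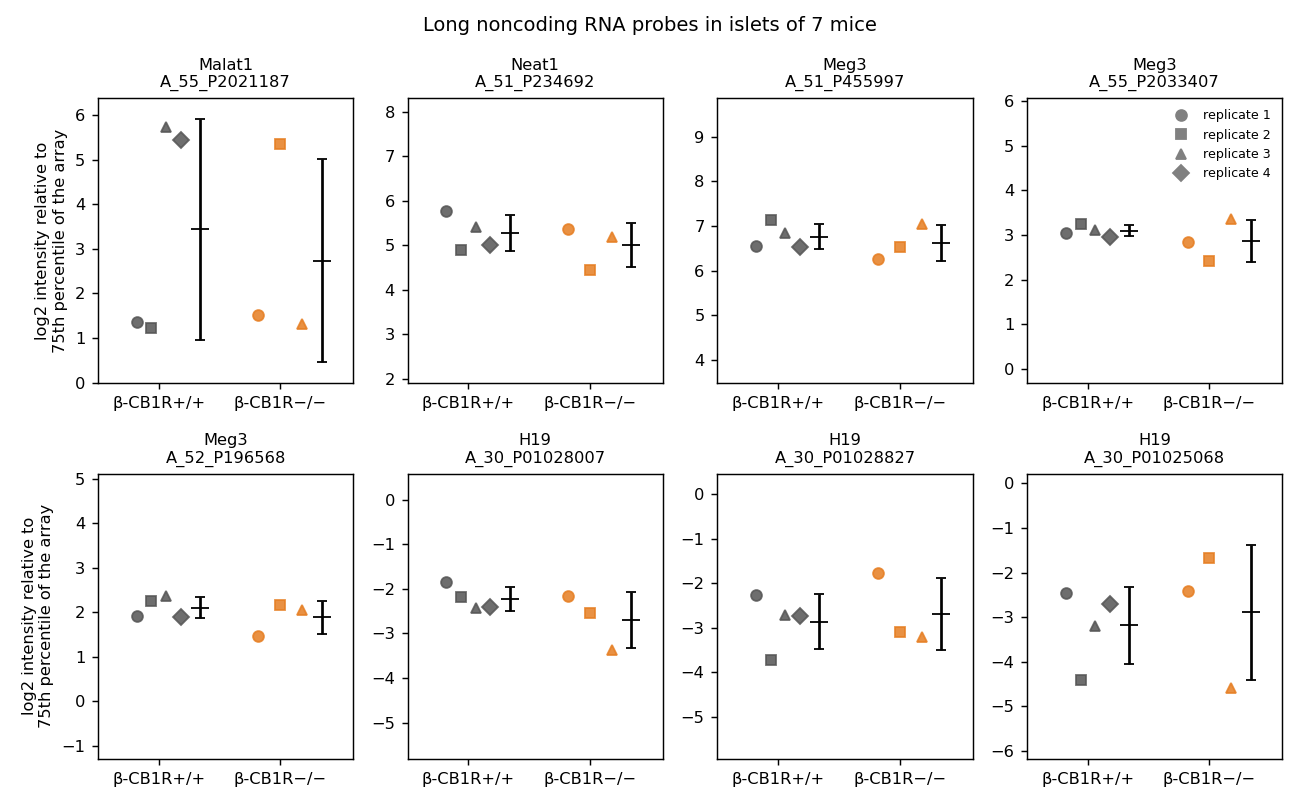
Log2 intensity relative to the 75th percentile of the array (y axis) for the 8 compared long noncoding RNA probes in β-CB1R+/+ (grey, n = 4) and β-CB1R-/- islets (orange, n = 3); each point is a mouse, its shape the replicate number, and the black line and bar are mean and SD. All panels span the same number of log2 units; Malat1 is split into 3 mice at 5.36 to 5.73 and 4 mice at 1.23 to 1.52, while the Neat1 and Meg3 points lie close together.

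**Figure D2:**
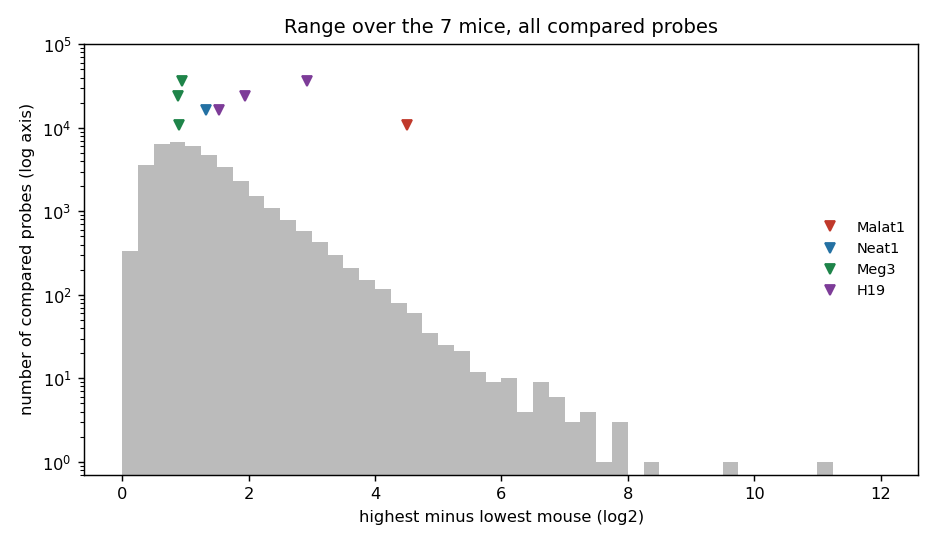
Histogram of the log2 range over the 7 mice (x axis, highest minus lowest mouse) for the compared probes, with the number of probes on a log axis (y axis); triangles give the range of each long noncoding RNA probe, and their height has no meaning. Malat1, at 4.51, lies in the upper tail, while the 3 Meg3 probes, at 0.88 to 0.94, lie below the median of 1.1.

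The 3 mice with high Malat1 were also the 3 with high Fos, an immediate-early transcription factor gene. The level of Fos was -0.82, -1.59, 6.31 and 5.34 in β-CB1R+/+ replicates 1 to 4 and 0.75, 5.84 and -0.71 in β-CB1R-/- replicates 1 to 3. By Fos the mice fell into 2 separate sets, so a relation between the genes over all mice could not be tested. Within the sets the order was not shared in full: Malat1 was higher in β-CB1R+/+ replicate 4 (5.44) than in β-CB1R-/- replicate 2 (5.36), and Fos was lower (5.34 against 5.84). The genes whose levels over the 7 mice were most like those of Malat1, out of 16948 ranked by Pearson correlation, were Egr1, Klf4 and Fos; the coefficients are not given, since with 2 sets of mice they rest on which mice were high. Egr1 was 6.39, 5.44 and 6.02 in the mice with high Malat1 and 0.09 to 1.47 in the others, and Klf4 was 2.20 to 2.56 against -0.24 to 0.51. All 3 genes are in a list of 25 immediate-early genes, which cells transcribe within minutes of a stimulus or stress without new protein synthesis. Of the 19 genes of this list other than Fos that were well above background in all 7 mice, 16 (84.2%) had the same 3 mice as their highest as Malat1, and of all 14136 genes above background in all mice 164 (1.16%) did. This is a description, since the level of Malat1 beside Fos was used in the choice of genes. Fosl2, Egr3 and Myc were the exceptions. Atf3, a stress-induced transcription factor gene, had the widest range in the list, from -5.41 to 4.15, and was well above background in 6 mice. The mean of the list, with each gene centred on its mean, was -1.28, -1.45, 1.86 and 1.1 in the β-CB1R+/+ mice and -0.83, 1.81 and -1.21 in the β-CB1R-/- mice. The part of the immediate-early genes in the level of Malat1 was not tested.

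**Figure D3:**
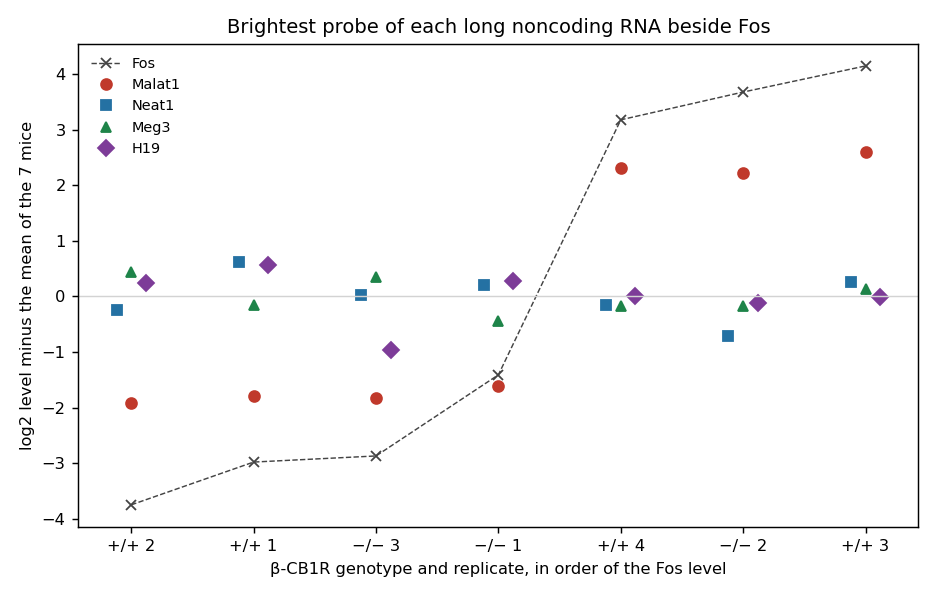
Log2 level minus the mean of the 7 mice (y axis) for the brightest probe of Malat1, Neat1, Meg3 and H19 and for Fos (dashed line), with the mice in order of their Fos level (x axis, genotype and replicate). Malat1 is 2.23 to 2.60 above its mean in the 3 mice with the highest Fos and 1.61 to 1.91 below it in the others, while no other long noncoding RNA shown separates these mice.

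Malat1 did not differ between the genotypes beyond the spread between mice. Its mean was 3.44 ± 2.49 (SD, n = 4) in β-CB1R+/+ and 2.73 ± 2.28 (SD, n = 3) in β-CB1R-/- islets. The log2 difference was -0.71 (standard error 1.47, 95% CI -4.09 to 2.68, limma adjusted p = 0.999; exact permutation p = 0.714, two-sided). With the mean of the immediate-early list as a covariate the difference was -0.52 (limma adjusted p = 0.999). The unadjusted limma p was 0.0861 with this covariate and 0.642 without it. The list includes Fos, and the level beside Fos was used in the choice of genes, so this fit is a description.

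Neat1 lies next to Malat1 but did not follow it. Its level was 5.77, 4.90, 5.41 and 5.01 in β-CB1R+/+ replicates 1 to 4 and 5.37, 4.44 and 5.18 in β-CB1R-/- replicates 1 to 3. The 2 highest mice, β-CB1R+/+ replicates 1 and 3, were low and high in Malat1, and the lowest, β-CB1R-/- replicate 2, was high in Malat1. The range of Neat1 was 1.33, which 36.6% of compared probes exceeded. The log2 difference between genotypes was -0.28 (standard error 0.31, 95% CI -0.99 to 0.44, limma adjusted p = 0.999; exact permutation p = 0.486). Without β-CB1R-/- replicate 2 it was -0.0019. Among the genes most like Neat1 over the 7 mice, out of 16948 ranked, were Foxo4 (r = 0.986) and Nfatc1 (r = 0.974), with ranges of 1.14 and 0.59. The highest of so many coefficients over 7 mice are high by selection. Foxo4 was well above background on 4 β-CB1R+/+ and 2 β-CB1R-/- arrays.

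The RNA of genes that encode proteins of paraspeckles and speckles was measured as a list of 17 genes, all of them compared. Of these, 4 were higher and 13 lower in β-CB1R-/- islets, with a median log2 difference of -0.17, against -0.039 over all genes. None passed the adjusted threshold in limma, as 0.171% of all genes did, and 0 had an unadjusted p under 0.05, as 3.90% of all genes did. The mean of the list lay between -0.02 and 0.15 in the β-CB1R+/+ mice and between -0.21 and 0.13 in the β-CB1R-/- mice. The splicing factor gene Srsf7 had a difference of -0.35 (standard error 0.38) and the speckle protein gene Son of -0.28 (standard error 0.22).

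Meg3 varied little and was measured by 3 probes. The brightest gave 6.55, 7.14, 6.84 and 6.53 in β-CB1R+/+ replicates 1 to 4 and 6.26, 6.52 and 7.05 in β-CB1R-/- replicates 1 to 3. The second gave 3.05, 3.25, 3.12 and 2.95 against 2.85, 2.41 and 3.35. The third gave 1.91, 2.25, 2.36 and 1.90 against 1.46, 2.16 and 2.04. Their ranges of 0.88, 0.94 and 0.90 were exceeded by 64.7%, 60.3% and 62.9% of compared probes, and the genotypes overlapped on every probe. The brightest probe correlated with the others over the 7 mice (r = 0.71 and 0.72), and these with each other less (r = 0.20). The probes differed most in β-CB1R-/- replicate 2, which was the lowest mouse on the second probe and the third highest on the third. The log2 differences between genotypes were -0.15 (standard error 0.26, 95% CI -0.76 to 0.45), -0.22 (standard error 0.25, 95% CI -0.80 to 0.35) and -0.22 (standard error 0.24, 95% CI -0.78 to 0.34), each with a limma adjusted p of 0.999 and with exact permutation p = 0.543, 0.429 and 0.457. None of the 3 intervals reached below -0.80 or above 0.45.

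On its brightest probe, the order of the mice by Meg3 ran against that of acinar markers. From lowest to highest, this probe placed the mice as β-CB1R-/- replicates 1 and 2, β-CB1R+/+ replicates 4, 1 and 3, β-CB1R-/- replicate 3 and β-CB1R+/+ replicate 2. From highest to lowest, the mean of 16 acinar markers, all compared, gave the same order apart from β-CB1R+/+ replicates 1 and 4, whose Meg3 levels differed by 0.02. The third probe departed from this order, with β-CB1R-/- replicate 2, second highest by acinar mean, being the third highest on it. The acinar mean was 0.36, -0.97, 0.10 and 0.12 in the β-CB1R+/+ mice and 0.60, 0.45 and -0.65 in the β-CB1R-/- mice, and 15 of the 16 markers were higher in β-CB1R-/- islets (median log2 difference 0.23). The mean of 10 beta cell markers was 0.02, 0.35, 0.21 and -0.09 against -0.24, -0.36 and 0.10, and was highest in β-CB1R+/+ replicate 2, where the brightest Meg3 probe was highest too. No acinar or beta cell marker passed the adjusted threshold in limma, and none had an unadjusted p under 0.05, against 0.171% and 3.90% of all genes. With the acinar mean as a covariate the difference of the brightest Meg3 probe was -0.036, that of the second -0.14 and that of the third -0.17. In whole islets, fewer cells of a type and less RNA per cell cannot be told apart, and the part of acinar tissue in the level of Meg3 was not tested beyond this fit. The genes most like the brightest Meg3 probe over the 7 mice, out of 16948 ranked, were Mcrip1 (r = 0.997), Zfp513 (r = 0.995) and Kdm1a (r = 0.994). The highest of so many coefficients over 7 mice are high by selection, and the other Meg3 probes were not searched.

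Other genes of the Dlk1-Dio3 domain, in which Meg3 lies, were also measured. Of 7 genes listed 4 were compared, 1 higher and 3 lower in β-CB1R-/- islets (median log2 difference -0.29), and none passed the threshold in limma (0 at an unadjusted p under 0.05), against 0.171% and 3.90% of all genes. Mirg, a microRNA host transcript of the same maternal cluster, had a level of 3.96, 4.17, 3.66 and 3.64 in β-CB1R+/+ and 2.98, 2.07 and 3.88 in β-CB1R-/- islets, a difference of -0.88 (standard error 0.40, limma adjusted p = 0.999) in which β-CB1R-/- replicate 3 overlapped with the β-CB1R+/+ mice. Dlk1, a paternally expressed gene of the domain, had a difference of -0.49 (standard error 0.27), and the antisense transcript Dio3os of 0.47 (standard error 0.40).

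The 5 probes that carry the name H19 were dim and gave different patterns, which describes these probes and not any H19 probe left without a name. The strand and the stretch of the gene that each one reads are not given in the sources used here. The brightest, A_30_P01028007, was well above background on all 8 arrays, with -1.85, -2.18, -2.43 and -2.41 in β-CB1R+/+ and -2.15, -2.54 and -3.38 in β-CB1R-/- islets. Replicate 3 of the β-CB1R-/- mice was lowest and the genotypes overlapped. The log2 difference of -0.47 (standard error 0.32, 95% CI -1.20 to 0.26, limma adjusted p = 0.999; exact permutation p = 0.257) had the lowest unadjusted p of the 8 compared probes, 0.177. A_30_P01028827, well above background in 6 mice, gave -2.27, -3.71, -2.72 and -2.73 against -1.77, -3.10 and -3.20, a difference of 0.17 (standard error 0.45). Its repeat arrays gave -2.25 and -3.95, a gap of 1.70, against an SD of 0.46 for the difference between repeat arrays over all compared probes. A_30_P01025068, well above background in 5 mice, gave -2.45, -4.40, -3.19 and -2.70 against -2.42, -1.67 and -4.58, a difference of 0.30 (standard error 0.73). Over the mice the 3 probes correlated with r between 0.43 and 0.59.

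The other 2 H19 probes were not compared. A_30_P01021588 was well above background on both arrays of β-CB1R-/- replicate 2 (-2.65 and -2.96) and on no array of another mouse, where its level was -6.13 to -5.05. A_30_P01026972 was well above background on no array. The genes most like the brightest H19 probe, out of 16948 ranked, were Pak4 (r = 0.991), Prss22 (r = 0.983) and Gm7134 (r = 0.982), coefficients that are high by selection. Pak4 ranged by 0.51, and Prss22 was well above background in 3 of the 7 mice.

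Of 15 genes listed for the H19-Igf2 domain and other imprinted growth genes, 13 were compared. Of these 1 was higher and 12 were lower in β-CB1R-/- islets, with a median log2 difference of -0.14, none passed the adjusted threshold in limma, and 2 (Nnat and Mest) had an unadjusted p under 0.05, as 662 (3.90%) of all 16964 genes did. Over all genes 9449 of 16964 were lower, with a median of -0.039. The mean of the list was 0.14 to 0.20 in the β-CB1R+/+ mice and -0.37 to -0.13 in the β-CB1R-/- mice. Such a separation was not particular to this list. The Dlk1-Dio3 genes had means of -0.02 to 0.40 against -0.23 to -0.06. The other long noncoding RNAs listed below had means of -0.02 to 0.27 against -0.16 to -0.03. Igf2 itself was not compared. Nnat, a membrane protein gene of endocrine and neural cells, had a level of -0.63, 1.41, 1.26 and 1.27 against -0.92, -0.52 and -0.17, a difference of -1.37 (standard error 0.50, limma adjusted p = 0.999), with β-CB1R+/+ replicate 1 among the β-CB1R-/- mice. Mest had -1.15, -0.43, -0.90 and -0.88 against -1.70, -2.70 and -1.21, a difference of -1.03 (standard error 0.36, limma adjusted p = 0.999), and was the 1 gene of the list whose genotypes did not overlap, as was so for 4.83% of all genes. Peg3, a paternally expressed transcription factor gene, had a difference of -0.82 (standard error 0.37), and Igf2os, antisense to Igf2, of -0.57 (standard error 0.35).

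Between the genotypes, 0 of the 8 compared probes of Malat1, Neat1, Meg3 and H19 passed an adjusted p of 0.05 in limma, against 0.110% (43) of 39165 compared probes. None had an unadjusted p under 0.05 in limma (3.59% of all compared probes) or in the methods' t test (3.61%), and 1 did under quantile normalisation (4.54%). On 6 probes the mean was lower and on 2 higher in β-CB1R-/- islets. The genotypes overlapped on all 8, against 4.12% of compared probes on which they did not. The smallest p that the 35 splits of 4 and 3 mice allow is 0.0286. For comparison, the Cnr1 probe was at -1.11, -0.77, -0.53 and -0.02 in β-CB1R+/+ and -2.30, -3.13 and -2.28 in β-CB1R-/- islets, a log2 difference of -1.97 (standard error 0.33, limma adjusted p = 0.193; exact permutation p = 0.0286).

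**Figure D4:**
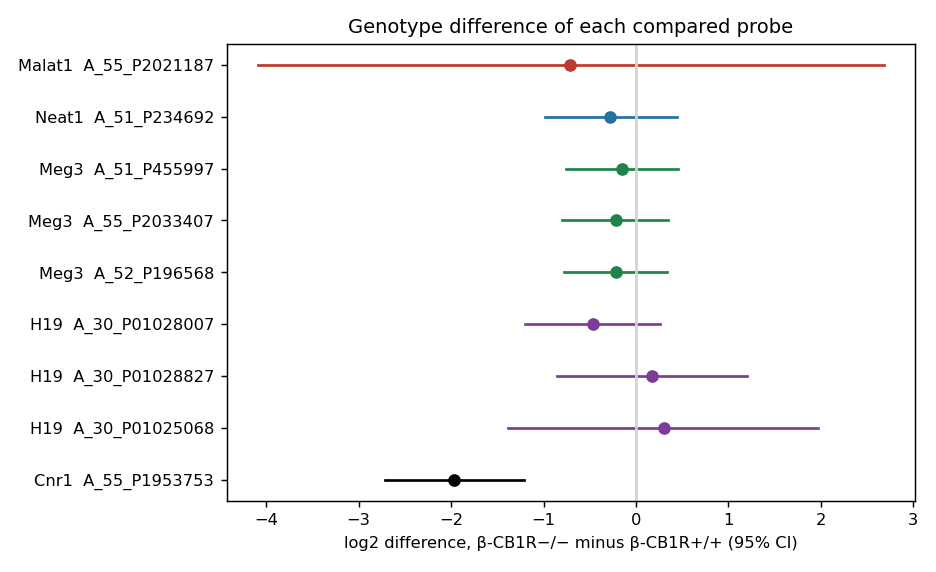
Log2 difference between genotypes (x axis, β-CB1R-/- minus β-CB1R+/+; points) with its 95% CI (lines) for the 8 compared long noncoding RNA probes and for Cnr1 (y axis, gene and probe). The intervals of the 8 long noncoding RNA probes include 0, the widest being that of Malat1 from -4.09 to 2.68, and that of Cnr1 runs from -2.72 to -1.21.

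Snhg11 and Gas5 had no matched probe, but other snoRNA host genes were measured. Of 19 listed, 12 were compared, 7 higher and 5 lower in β-CB1R-/- islets with a median log2 difference of 0.02, and 0 passed the adjusted threshold in limma or an unadjusted p under 0.05 (0.171% and 3.90% of all genes). Dancr had the largest difference, with 1.26, 1.65, 0.55 and 0.64 in β-CB1R+/+ and 0.72, 0.30 and 1.05 in β-CB1R-/- islets (-0.34, standard error 0.33). Its 3 lowest mice, at 0.30 to 0.64, were the 3 with high Malat1, but β-CB1R-/- replicate 1 was close at 0.72. The share of all genes with this match was not counted. Snhg15 had 3.02, 3.01, 3.06 and 3.24 against 3.34, 3.99 and 2.83 (0.30, standard error 0.28), and Snhg10 a difference of -0.24 (standard error 0.25). Snhg17 had the widest range, from -1.63 to -0.11. The mean of the list moved by 0.26 over the mice, from -0.10 to 0.17.

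Of 34 other named long noncoding RNAs 17 were compared. Among these 3 were higher and 14 lower in β-CB1R-/- islets with a median log2 difference of -0.14, and 0 passed the adjusted threshold in limma or an unadjusted p under 0.05 (0.171% and 3.90% of all genes). After Mirg the largest differences were those of Dnm3os, -0.70 (standard error 0.47), well above background in 4 mice, and of Dleu2, -0.51 (standard error 0.31). Mir17hg had the widest range, 2.47, and was well above background in 5 mice. Of the genes above background in all 7 mice, 12 in the first list and 12 in the second, 2 and 0 had the same 3 mice as their highest as Malat1, namely Snhg1 and Snhg17. Snhg1 did so within a range of 0.46. Lncpint was highest in β-CB1R-/- replicate 2 (2.96) and lay between 1.07 and 1.86 in the other 6 mice. None of the 29 genes in both lists had a range as wide as that of Malat1.

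**Figure D5:**
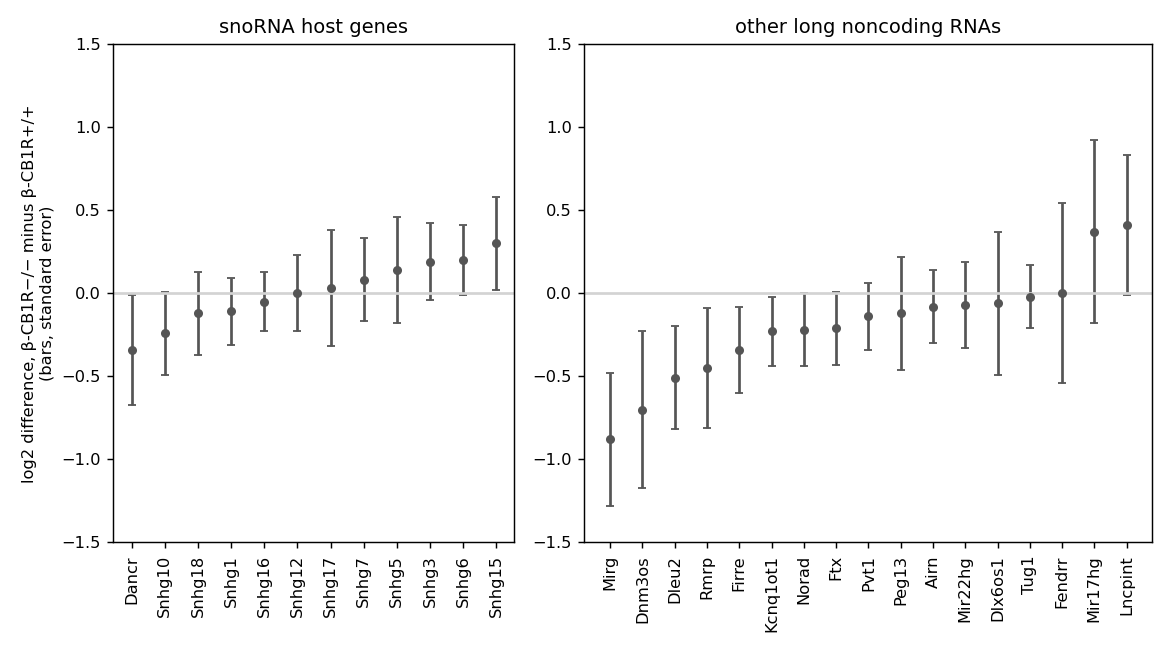
Log2 difference between genotypes (y axis, β-CB1R-/- minus β-CB1R+/+; points) with its standard error (bars) for 12 snoRNA host genes (left) and 17 other long noncoding RNAs (right), each by its brightest compared probe. The differences run from -0.34 to 0.30 on the left and from -0.88 to 0.41 on the right.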

How the data were processed

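Islet RNA of 4 β-CB1R+/+ and 3 β-CB1R-/- mice was measured on 8 one-colour arrays. For each spot the authors deposited the Feature Extraction 11.5.1.1 intensity, background-subtracted and not scaled between arrays, and a Z score, which matched the standardised log10 intensity to within 0.00503. The members and lists were chosen with earlier results of these data known. The 59305 non-control spots were expressed as log2 intensity relative to the array's 75th percentile. Irregular spots were left out, spots of a probe and repeat arrays were averaged, and probes well above background in 3 or more mice were compared (39165 of 55681); a mouse with repeat arrays counted if 1 of them was above background. No spot was saturated. Genotypes were compared with limma 3.58.1 in R 4.3.3 (lmFit, eBayes, Benjamini-Hochberg over all compared probes, threshold 0.05) and single probes also by an exact two-sided permutation test. The transcript listed for a probe was matched to RefSeq symbols (28026 probes, and 13 by the listed name). The arrays' build differs from that of RefSeq, and no probe position is given.

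Each gene of a list was represented by its brightest compared probe, and no set test was run. The lists were snoRNA host genes, other long noncoding RNAs, paraspeckle and speckle proteins, Dlk1-Dio3 and H19-Igf2 domain genes, 5′TOP translation genes, nonsense-mediated decay factors, proliferation, immediate-early genes and markers of 9 cell types. Named were all member probes, the 3 genes most like each member, the 3 genes of each list with the largest difference, Cnr1, Fos, the other immediate-early genes of widest range and the islet hormones; 2 genes that this rule names are not reported here. Igf2os, Lncpint, Snhg1, Fosl2, Egr3, Myc and Igf2 were named after their values were seen. Alternatives were normexp (offset 50), quantile normalisation, Z scores, other filters, single repeat arrays, a replicate block, a variance trend, immediate-early and acinar covariates, leaving out each mouse and the t test that the methods name. The fit was checked on simulated data. The number of arrays limits the precision.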

Additional observations from a re-analysis of the deposited data

Results flagged for a closer look

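Of 24 groups of 4 β-CB1R+/+ mice examined, covering the long noncoding RNA probes, Fos, Cnr1 and the genes most like each member, 1 held a mouse far from the others, and chance gives about 1.2. Gm7134, the third gene most like H19, was at -2.06 in β-CB1R+/+ replicate 1, and the other β-CB1R+/+ mice lay between -2.85 and -2.72. It was at -2.52, -2.83 and -4.07 in the β-CB1R-/- mice. The spread of no long noncoding RNA probe in the β-CB1R+/+ mice met the same limit, Malat1 included, since its high values came in a pair.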

How the results depend on the processing

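The number of long noncoding RNA probes past the adjusted threshold was 0 of 8 under every alternative run (0 of 6 where a probe had to be above background on each array), and 1 had an unadjusted p under 0.05 under quantile normalisation (4.54% of all probes). Over all probes the number past the threshold was 43. Other scalings, single repeat arrays and a variance trend gave 34 to 46. The number fell to 23 when dim probes were kept, 24 when a probe had to be above background on each array, 16 with the immediate-early covariate, 18 with the acinar covariate and 0 with the methods' t test (1412 at an unadjusted p under 0.05). With the replicate number as a block, which uses 3 mice of each genotype, it was 0 (1714 at an unadjusted limma p under 0.05). Same-numbered mice deviated from their group means with correlations of 0.422, -0.273 and -0.062. These values differ in sign and are too few to decide whether the numbers pair the mice. Under the block the difference of Malat1 was -0.04. Leaving out single mice gave 0 to 32 probes: 26, 15, 8 and 24 without β-CB1R+/+ replicates 1 to 4 and 32, 0 and 4 without β-CB1R-/- replicates 1 to 3 (727 at an unadjusted limma p under 0.05 for the 0).

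The log2 difference of Malat1 was 0.057 without β-CB1R+/+ replicate 3 and 0.0027 without β-CB1R-/- replicate 3, and lay between -2.02 and 0.057 over all mice left out, with -2.02 without β-CB1R-/- replicate 2. That of the brightest Meg3 probe was 0.022 without β-CB1R-/- replicate 1 (-0.37 to 0.022 over the mice), and that of the second 0.0069 without β-CB1R-/- replicate 2 (-0.46 to 0.0069). The H19 probe A_30_P01028827 was at -0.11 with the second repeat array alone, -0.039 with the acinar covariate, -0.11 without β-CB1R+/+ replicate 2 and -0.29 without β-CB1R-/- replicate 1 (-0.29 to 0.43). The H19 probe A_30_P01025068 was at -0.11 with the acinar covariate, -0.11 without β-CB1R+/+ replicate 2 and -0.32 without β-CB1R-/- replicate 2 (-0.32 to 1.14). The differences of Neat1, the third Meg3 probe and the brightest H19 probe kept their sign under all alternatives run, but not their size. Neat1 was at -0.0019 without β-CB1R-/- replicate 2 and -0.11 without β-CB1R+/+ replicate 1 (-0.46 to -0.0019 over the mice), the third Meg3 probe at -0.0083 without β-CB1R-/- replicate 1 (-0.36 to -0.0083), and the brightest H19 probe at -0.13 without β-CB1R-/- replicate 3 (-0.74 to -0.13) and -0.24 with normexp. The cause of these shifts was not tested. The dim H19 probes lie near background, which limits their precision.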

Other observations

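Several snoRNA host transcripts, Gas5 among them, begin with a 5′ terminal oligopyrimidine tract (5′TOP), as do the messengers of the translation machinery. Of 17 such translation genes, 16 had a higher mean in β-CB1R-/- islets, as did 7515 of all 16964 genes. Their median log2 difference was 0.26, against -0.039 over all genes, and 0 passed the adjusted threshold in limma or an unadjusted p under 0.05, which 0.171% and 3.90% of all genes did. Their mean was -0.51 to 0.11 in the β-CB1R+/+ mice and -0.33 to 0.43 in the β-CB1R-/- mice, and was highest in the mice with the highest acinar mean, β-CB1R-/- replicates 1 and 2. Rps3 had the largest difference, 0.90 (standard error 0.74), with β-CB1R+/+ replicate 2 at 2.88 and the other mice at 5.60 to 6.35. Rack1 and Rpl32 each had a difference of 0.41 (standard errors 0.30 and 0.38). Of 8 nonsense-mediated decay factors, which degrade the spliced RNA of many snoRNA hosts, 3 were higher and 5 lower (median -0.05), with 0 past either threshold, beside the same shares of all genes, and Smg1, Smg6 and Upf3a at -0.31, 0.21 and 0.18. Of 8 proliferation genes compared 2 were higher and 6 lower (median -0.26). None passed the adjusted threshold in limma, and 2, Ccna2 (-0.62) and Ccnb2 (-0.59), had an unadjusted p under 0.05, as 3.90% of all genes did. Ccnb1, also a cyclin gene, was at 0.57 (standard error 0.34) and was well above background in 6 mice. The immediate-early genes had a median difference of -0.21, with 7 higher and 16 lower.

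Among cell type markers, 0 passed the adjusted threshold in limma, and counts at an unadjusted p under 0.05 stand beside 3.90% of all genes. The median log2 difference was -0.17 over 10 beta cell markers (1 higher, 0 at an unadjusted p under 0.05), -0.67 over 6 alpha cell markers (1 higher; 3 at an unadjusted p under 0.05), -0.19 over 3 delta and PP cell markers, 0.01 over 6 duct cell markers, 0.94 over 8 stellate cell and fibroblast markers (7 higher), 0.46 over 8 macrophage markers (8 higher; 1 at an unadjusted p under 0.05) and -0.11 over 7 neuron and Schwann cell markers (1 at an unadjusted p under 0.05). Over 8 endothelial markers 4 were higher and 4 lower. The stellate cell and fibroblast mean was highest in β-CB1R+/+ replicate 4 (2.05) and lowest in β-CB1R+/+ replicate 2 (-1.58), mice with high and low Malat1, but β-CB1R+/+ replicate 3, with the highest Malat1, was at -0.63.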
